A study of Mus musculus with 8 samples.

Results

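Genes of 10 Wnt antagonists were followed in cells sorted from the growth plate region of mice given a Hedgehog agonist or its vehicle. They were chosen by name, with earlier results of these data known. They are *Sfrp1*, *Sfrp2*, *Sfrp4*, *Frzb*, *Wif1*, *Dkk1*, *Dkk2*, *Dkk3*, *Apcdd1*, and *Nkd2*, which are 10 of the 16536 genes in the deposited count table. All 10 were present in the table, and all 10 passed the filter on low counts. RNA sequencing was done on mCherry+CD73+ cells that had been sorted by FACS, 1 library for each of 8 Pthrp-mCherry mice, 4 given DMSO and 4 given SAG. In these mice mCherry is driven by the regulatory sequences of the gene for PTHrP (*Pthlh*), so both groups carried the same reporter, and the labels tell them apart by the injection. SAG activates Smoothened, which relays the Hedgehog signal across the cell membrane, and DMSO served as the vehicle. Injections were given i.p. once daily, on days P30 to P36 by the study's account of this experiment and 1 day later by its methods, and the mice were sacrificed at P38. The growth plate region was dissected and digested, and CD73 (*Nt5e*) was used in the sort to leave out mCherry+ cells of the articular surface and the perichondrium. Males and females were both used, and the labels name neither sex nor litter.

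Wnt proteins signal by binding Frizzled receptors together with the coreceptors Lrp5 and Lrp6, which stabilizes β-catenin and switches on TCF/LEF target genes. Antagonists act at different points of this route: secreted Frizzled-related proteins and Wif1 bind the Wnt ligand outside the cell, Dickkopf proteins block the coreceptors, and membrane-bound or cytoplasmic inhibitors dampen the signal in the receiving cell. In the growth plate, the resting zone that holds the PTHrP+ stem cells is known as a place of low Wnt activity, and several of these antagonists are made by chondrocytes or by the fibrous tissue around cartilage.

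The libraries held 24971992 to 46593090 counts on genes, so that a gene with 3 counts is at 0.0644 to 0.120 CPM, which is a floor for counting error only. CPM is the count divided by the library total, and the levels below were also scaled by edgeR's TMM factors. Member counts lay well above it, between 16 and 23180 per mouse. *Pthlh*, which drives the reporter, lay between 14.9 and 29.9 CPM and *Nt5e* between 149 and 269.6 CPM over the 8 mice. *Nt5e* was lower in every SAG-treated than in every DMSO-treated mouse, at 149 to 174 CPM against 184 to 269.6 CPM. It was not called (log2 fold change -0.51, unadjusted p = 0.0178 and adjusted p = 0.186 from edgeR). The cartilage genes *Col2a1*, *Acan*, and *Sox9* were measured at 173.6 CPM or more in every mouse. DMSO replicate 4 stood apart, with 14416 genes detected and Spearman's rho across genes of 0.846 to 0.875 with the other DMSO-treated mice, against 0.931 to 0.942 among those. Summed markers of neutrophils lay between 4889 and 13771 CPM in DMSO-treated and between 25620 and 40753 CPM in SAG-treated mice, with 9 of 12 genes called higher and 0 of 12 at 0 counts in any mouse. Summed chondrocyte markers lay between 50454 and 119497 CPM in DMSO-treated and between 20735 and 57759 CPM in SAG-treated mice, with 0 of 15 called, all 15 log2 fold changes below 0, and an unadjusted p under 0.05 in 13. Hypertrophic chondrocyte markers summed to 561 to 1329 CPM and 191 to 359.7 CPM, with *Ihh* and *Col10a1* called lower among 7, and B lineage markers to 124 to 505 CPM and 40.4 to 90.8 CPM, with 3 of 7 tested called lower and *Vpreb1* at 0 counts in at least 1 mouse. The part of these shifts in the values below was not tested, and in sorted bulk samples fewer cells of a type and less RNA per cell cannot be told apart.

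None of the 10 antagonists was called higher or lower in cells from SAG-treated mice. *Nkd2*, an inhibitor inside the cell, had the largest log2 fold change of the 10 in size, at 9.995 ± 3.22 CPM in DMSO-treated and 3.16 ± 2.25 CPM in SAG-treated mice (SD, n = 4 each), and the intervals of the other 9 held 0. The counts of calls were 0 of 10 higher and 0 of 10 lower (edgeR's quasi-likelihood test with Benjamini-Hochberg adjustment over 15421 genes, adjusted p under 0.05), where 2.62% of all tested genes were called higher and 0.266% lower, or 2.89% in either direction. The unadjusted p was under 0.05 for 1 of the 10 in the lower direction and for 0 in the higher, against 6.5% and 9.58% of all tested genes. DESeq2 called 1 of the 10 lower, which was *Nkd2*, and 0 higher, against 3.35% and 6.6% of its genes, and limma voom called 0 in either direction, against 2.58% and 6.45%. The 4 SAG-treated mice did not lie wholly above or below the 4 DMSO-treated mice in any of the 10 genes, a separation found in 11.7% of all tested genes, 3.84% lower and 7.9% higher. Of the 10 log2 fold changes, 6 were below 0, as were 54.8% of all. The median over the 10 was -0.53 against -0.08 over all tested genes, and the range was -1.66 to 0.70. Without DMSO replicate 1, *Sfrp4* and *Dkk2* turned to 0.52 and 0.67, and *Dkk3* moved to -0.25. *Wif1*, *Apcdd1*, and *Nkd2* were then at -0.56, -0.56, and -1.58, and the other genes stayed above 0. The sign of the median thus rested on that mouse.

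Mice of the same group spread more widely in most of these genes than in the median gene, in 7 of 10 with DMSO and in 9 of 10 with SAG. *Wif1*, *Apcdd1*, and *Nkd2* spread less than the median gene with DMSO. Within the DMSO group the SD of log2 CPM had a median of 1.32 over the 10 genes against 0.68 over all tested genes, and within the SAG group it was 0.85 against 0.47. The standard error of the fold change had a median of 0.73 on the log2 scale, compared with 0.44 over all tested genes. For 9 of the 10 genes the 95% interval of the log2 fold change held 0, and for 9 of them it was wider than 2, so that severalfold differences lie within most of these intervals.

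**Figure D1:**
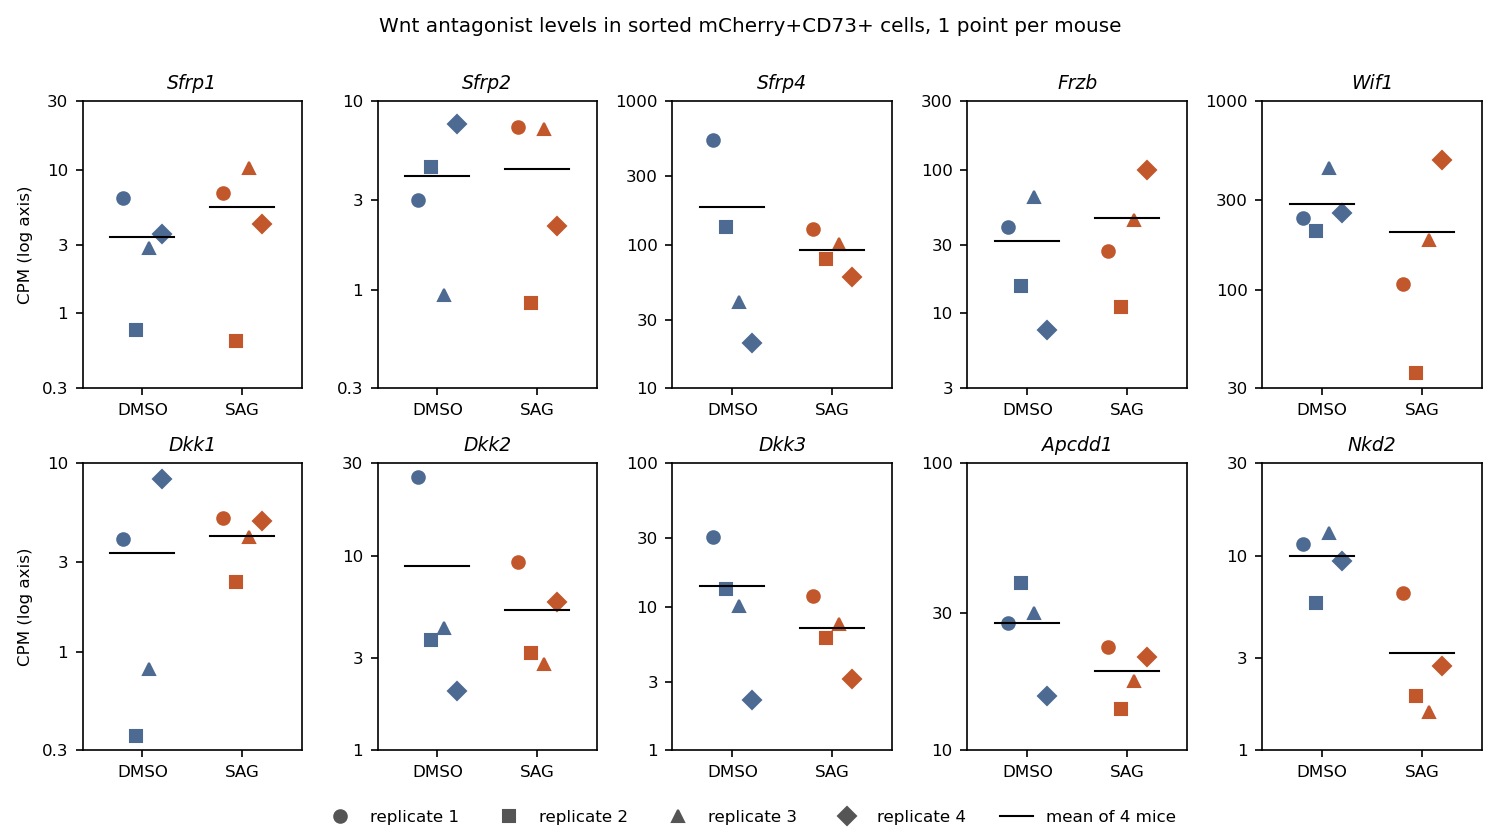
Level of each of the 10 antagonists in CPM on a log axis, with 1 point per mouse, marker shapes for replicates 1 to 4, and a black line at the mean of 4 mice. The groups overlap in all 10 panels, and 3 of the 4 SAG-treated mice lie below every DMSO-treated mouse in *Wif1* and *Nkd2*.

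Levels between genes were compared per length, as CPM per kilobase of the union of annotated exons. By the median over the 8 mice, *Wif1* was the most abundant at 97.1 CPM per kilobase, followed by *Sfrp4* at 21.6 and *Frzb* at 10.7. The other 7 lay between 0.888 CPM per kilobase for *Sfrp1* and 2.64 for *Dkk3*. By its mean, *Wif1* ranked above 96.9% of all genes in the table and *Sfrp1* above 26.0%. Neighbours in this order were mostly not separated: *Wif1* was above *Sfrp4* in 6 of 8 mice, *Sfrp4* above *Frzb* in 6 of 8, and *Nkd2* above *Dkk2* in 3 of 8. Only the step from *Frzb* to *Dkk3* held in 8 of 8 mice, among the 9 steps between neighbours. The sum was thus held mostly by 3 genes, and *Wif1*, *Sfrp4*, and *Frzb* together held between 78.9% and 93.6% of the summed CPM in each mouse. With DMSO the sum was 573 ± 265 CPM, and with SAG it was 390.1 ± 222 CPM (SD, n = 4 each). *Wif1* held the highest CPM of the 10 in 5 of 8 mice, and *Sfrp4* in DMSO replicate 1 and SAG replicates 1 and 2.

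Among the secreted Frizzled-related proteins, which carry a ligand-binding domain like that of the Frizzled receptors, *Sfrp4* showed the widest spread. *Sfrp4* (ENSMUSG00000021319.7, chromosome 13 of GRCm38, 19623104 to 19632994, plus strand) is known for its role in bone, where its loss thins the cortex. In DMSO replicates 1 to 4 it was measured at 540.4, 133, 39.8, and 20.5 CPM. In SAG replicates 1 to 4 it was measured at 129, 79.9, 101, and 59.4 CPM. The 4 SAG-treated mice thus lay inside the range of the DMSO-treated mice, which spanned 26.3-fold, and DMSO replicate 1 stood 4.06-fold above the next mouse of its group. The means were 183 ± 243 CPM and 92.2 ± 29.6 CPM (SD, n = 4 each), and the log2 fold change was -0.99 (95% interval -2.69 to 0.70, adjusted p = 0.608 from edgeR). Without DMSO replicate 1 the log2 fold change became 0.52, so its direction rested on that mouse.

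*Frzb*, also called Sfrp3 and abundant in cartilage, lies on chromosome 2 of GRCm38 from 80411970 to 80447625 on the minus strand (ENSMUSG00000027004.3). Its levels were 40.1, 15.6, 64.8, and 7.67 CPM in DMSO replicates 1 to 4. They were 27.2, 11.0, 45.0, and 100.3 CPM in SAG replicates 1 to 4. SAG replicate 4 was the highest of all 8 mice and DMSO replicate 4 the lowest, while the other 6 were intermingled. The log2 fold change was 0.52 (95% interval -0.996 to 2.03, adjusted p = 0.797 from edgeR), and without SAG replicate 4 it was -0.21. RefSeq promoter windows, which run from 250 bases before to 50 after the transcription start, were available for 6 of the 10 genes, namely *Sfrp2*, *Frzb*, *Wif1*, *Dkk1*, *Dkk2*, and *Nkd2*. They were searched on both strands for CTTTGA, the core bound by TCF/LEF factors, and for GACCACCCA, the core bound by the Gli factors of Hedgehog signaling. The TCF/LEF core was found in 2 of the 6 windows, *Frzb* and *Dkk1*, and in 16% of all 32851 windows, and the Gli core in 0 of 6 and in 0.253% of all, which says only that these letters are not in the 6 windows. The *Frzb* match is shown because it sits in one of the 3 most abundant antagonists. It begins 95 bases before the RefSeq start, at chr2:80447474-80447503 of GRCm38.p6 (minus strand, match in capitals), and GENCODE, which starts the transcript farther upstream, places it in the 5′ UTR of the first exon.
Frzb: tcccctgaaaacTCAAAGccttctcggaag

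The other two secreted Frizzled-related genes were expressed at a few CPM. *Sfrp1* (ENSMUSG00000031548.7, chromosome 8, 23411502 to 23449632, plus strand) is known as a gene that Hedgehog signaling induces in some mesenchymal tissues. It was measured at 6.37, 0.759, 2.87, and 3.57 CPM in DMSO replicates 1 to 4 and at 6.90, 0.642, 10.3, and 4.197 CPM in SAG replicates 1 to 4. Of the SAG-treated mice, 2 lay above every DMSO-treated mouse and 1 lay below, and the log2 fold change was 0.70 (95% interval -1.22 to 2.62, adjusted p = 0.781 from edgeR). *Sfrp2* (ENSMUSG00000027996.13, chromosome 3, 83766321 to 83774316, plus strand) overlaps an antisense gene on the opposite strand, Gm26771, which the count table does not list. Its levels were 3.01, 4.49, 0.936, and 7.55 CPM in DMSO-treated and 7.33, 0.856, 7.10, and 2.19 CPM in SAG-treated mice. The groups covered nearly the same range, and the log2 fold change was 0.13 (95% interval -1.76 to 2.01, adjusted p = 0.965 from edgeR). Its sign reversed in 5 of 17 alternative fits, among them those without DMSO replicate 3, SAG replicate 1, or SAG replicate 3.

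*Wif1*, which encodes a secreted protein that binds Wnt ligands through a domain of its own kind, lies on chromosome 10 of GRCm38 from 121033960 to 121100650 (ENSMUSG00000020218.11, plus strand). The 4 DMSO-treated mice were at 241, 204, 444, and 255 CPM. The 4 SAG-treated mice were at 107, 36.3, 184, and 487 CPM. Of the SAG-treated mice, 3 lay below the lowest DMSO-treated mouse, and the remaining one, SAG replicate 4, lay above the highest. The range within the SAG group was 13.4-fold against 2.18-fold within the DMSO group. The log2 fold change was -0.49 (95% interval -1.78 to 0.80, adjusted p = 0.769 from edgeR), and without SAG replicate 4 it was -1.39 (adjusted p = 0.226 from edgeR). *Wif1* moved with the summed level of 12 perichondrial, tendon, and synovial markers. Pearson's r was 0.94 and Spearman's rho 0.88 between log2 levels over the 8 mice, and r was 0.97 without DMSO replicate 1. SAG replicate 2 was lowest in both, and r without that mouse was not computed. The summed level of these 12 genes was 6301, 3067, 6809, and 3467 CPM in DMSO replicates 1 to 4 and 2782, 1277, 4031, and 7224 CPM in SAG replicates 1 to 4, and *Scx*, *Tnmd*, *Aspn*, and *Ly6a* were at 0 counts in at least 1 mouse. *Fmod* alone held between 30.4% and 87.0% of this sum. *Prg4*, the lubricin gene of the joint surface, was named after its values were seen and lay between 115 and 4519 CPM, with the highest level in SAG replicate 4. Others of the list had other patterns. *Postn* and *Aspn* were highest in DMSO replicate 1, and *Pi16* was higher in every SAG-treated than in every DMSO-treated mouse. *Wif1* also moved with the summed level of the 7 resting zone markers (r = 0.91, Spearman's rho 0.93). In that sum *Nt5e* alone held 31.6% to 56.2%. The sum was 271 CPM in SAG replicate 2, where *Wif1* was lowest, and between 461.7 and 561 CPM in the other 7 mice. *Pthlh*, also on the list, was at 24.4 CPM in SAG replicate 2 and at 14.9 to 29.9 CPM in the other 7. *Wif1* with the perichondrial list and with the resting zone list were the 2 pairs with r of 0.9 or more among 140 pairs of a member and a marker list. The points share their library, and the part of other cells in the *Wif1* level was not tested.

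The Dickkopf genes were expressed at lower levels than *Wif1* and *Sfrp4*. *Dkk1*, a secreted inhibitor that binds Lrp5 and Lrp6, lies on chromosome 19 of GRCm38 from 30545863 to 30549665 (ENSMUSG00000024868.8, minus strand). It was measured at 3.96, 0.357, 0.815, and 8.28 CPM in DMSO replicates 1 to 4. In SAG replicates 1 to 4 it was measured at 5.14, 2.35, 4.09, and 4.97 CPM. DMSO-treated mice spanned 23.2-fold and enclosed all 4 SAG-treated mice, which spanned 2.19-fold. The log2 fold change was 0.31 (95% interval -1.73 to 2.34, adjusted p = 0.923 from edgeR), and it was -0.07 without DMSO replicate 2 and -0.06 without DMSO replicate 3. Its promoter window held 2 matches to the TCF/LEF core, 117 and 174 bases before the RefSeq start, and both are shown because *Dkk1* is itself known as a target of β-catenin signaling. They lie on the minus strand at chr19:30549596-30549625, within the 5′ UTR that GENCODE annotates, and at chr19:30549653-30549682, across the GENCODE start of the gene (GRCm38.p6, matches in capitals).
Dkk1 nearer the start: ctcctcccaaagCTTTGAaatcccatcccg
Dkk1 farther from the start: gaggggagagtgTCAAAGtcctccctgctt

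*Dkk2*, which encodes a secreted protein that also binds Lrp5 and Lrp6, lies on chromosome 3 from 132085292 to 132180304 (ENSMUSG00000028031.6, plus strand). Its levels were 25.6, 3.68, 4.26, and 2.01 CPM in DMSO replicates 1 to 4 and 9.31, 3.16, 2.79, and 5.84 CPM in SAG replicates 1 to 4. DMSO replicate 1 lay 6.01-fold above the next DMSO-treated mouse, and the remaining 7 mice overlapped. The log2 fold change was -0.75 (95% interval -2.51 to 1.00, adjusted p = 0.734 from edgeR), and without DMSO replicate 1 it turned to 0.67. *Dkk3* (ENSMUSG00000030772.6, chromosome 7, 112116017 to 112159057, minus strand) is the divergent member of the family, whose part in Wnt signaling is less settled. It was measured at 30.6, 13.3, 10.2, and 2.24 CPM in DMSO-treated and at 11.9, 6.08, 7.57, and 3.17 CPM in SAG-treated mice. Of the DMSO-treated mice, 2 lay above every SAG-treated mouse and 1 lay below, and the log2 fold change was -0.97 (95% interval -2.46 to 0.52, adjusted p = 0.551 from edgeR), or -0.25 without DMSO replicate 1.

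DMSO replicate 1 held the highest level of *Sfrp4*, *Dkk2*, and *Dkk3* among the 8 mice. Across the mice these 3 genes varied together, with Pearson's r of log2 CPM of 0.86 for *Sfrp4* and *Dkk3* (Spearman's rho 0.86), 0.81 for *Sfrp4* and *Dkk2* (rho 0.55), and 0.73 for *Dkk2* and *Dkk3* (rho 0.64), the 3 highest of 45 pairs, whose median was 0.16. Without DMSO replicate 1, r was 0.74, 0.50, and 0.44, and without the 2 mice farthest from the median of the first gene it was 0.44, 0.09, and 0.24. All 3 relations thus rested at least in part on few mice. The r of *Dkk2* within the 4 SAG-treated mice was 0.26 with *Sfrp4* and 0.22 with *Dkk3*. *Sfrp4* and *Dkk3* had an r of 0.92 within the 4 DMSO-treated and 0.99 within the 4 SAG-treated mice. Some genes of fibrous tissue and bone, named after their values were seen, were also highest in DMSO replicate 1. *Postn* was at 167 CPM there and at 5.88 to 55.4 CPM in the other 7 mice, *Aspn* at 63.3 CPM against at most 20.4, and *Col1a1* at 5971 CPM against at most 3008. Others of the perichondrial, tendon, and synovial list were not, with *Prg4* at 2059 CPM in DMSO replicate 1 and 4519 CPM in SAG replicate 4, *Pi16* at 49.7 CPM against 76.4 to 132 CPM in SAG-treated mice, and the list's sum higher in DMSO replicate 3 and SAG replicate 4. Their part in the levels of the 3 antagonists was not tested. By the rule of the highest r among 9307 other genes with a mean of at least 10 CPM, the genes most like *Dkk2* over the 8 mice were *Postn* (r = 0.96) and *Col14a1* (0.95), and those most like *Sfrp4* were *Cd163* (0.98) and *Dmpk* (0.98).

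**Figure D2:**
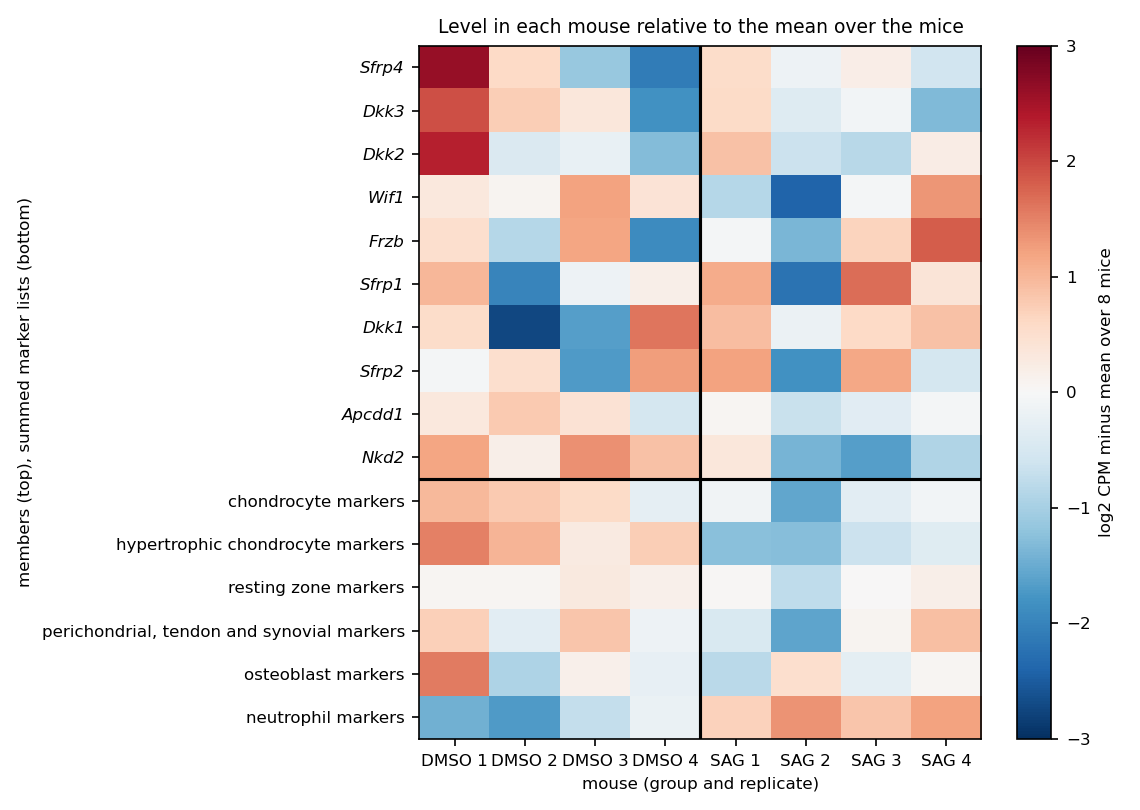
Colour gives log2 CPM minus the mean over the 8 mice for the 10 antagonists (top) and for the summed CPM of 6 marker lists (bottom), with 1 column per mouse. DMSO replicate 1 is highest in *Sfrp4*, *Dkk2*, and *Dkk3*, *Wif1* follows the sum of the perichondrial list (r = 0.94), and neutrophil markers are higher in all 4 SAG-treated mice.

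The remaining 2 antagonists act in the receiving cell rather than as secreted proteins. *Apcdd1* encodes a membrane glycoprotein that binds Wnt and Lrp proteins at the cell surface, and lies on chromosome 18 from 62922231 to 62961179 (ENSMUSG00000071847.13, plus strand). Its levels were 27.7, 38.2, 30.0, and 15.5 CPM in DMSO replicates 1 to 4 and 22.9, 14.0, 17.5, and 21.2 CPM in SAG replicates 1 to 4. All DMSO-treated mice but 1 lay above every SAG-treated mouse, and DMSO replicate 4 lay among the SAG-treated mice. The log2 fold change was -0.56 (95% interval -1.27 to 0.15, adjusted p = 0.458 from edgeR), the narrowest interval of the 10. *Apcdd1* varied with the summed chondrocyte markers over the 8 mice (Pearson's r 0.88, Spearman's rho 0.88), and r was 0.91 without DMSO replicate 4. SAG replicate 2 was lowest in both, and r without that mouse was not computed. Scaled to these markers in place of TMM, the log2 fold change of *Apcdd1* was 0.57. That was -0.46 relative to the median of all genes, which the scaling moved to 1.03.

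*Nkd2* encodes a myristoylated protein at the inner side of the membrane that binds Dishevelled, and is therefore not a secreted antagonist. It lies on chromosome 13 of GRCm38 from 73818534 to 73847631 (ENSMUSG00000021567.15, minus strand), and a processed pseudogene on the opposite strand, Gm8062, overlaps it and is not in the count table. In DMSO replicates 1 to 4 it was measured at 11.6, 5.76, 13.2, and 9.41 CPM. In SAG replicates 1 to 4 it was measured at 6.47, 1.90, 1.57, and 2.71 CPM. All SAG-treated mice but 1 lay below every DMSO-treated mouse, and SAG replicate 1 lay between DMSO replicate 2 and the others. The log2 fold change was -1.66 (standard error 0.60, 95% interval -2.98 to -0.34), with an unadjusted p of 0.0179 and an adjusted p of 0.186 from edgeR. DESeq2 gave a log2 fold change of -1.69 and an adjusted p of 0.0415, where it called 3.35% of its 12311 genes lower, and limma voom gave -1.84 and 0.0646. The sign was negative in all 17 alternative fits, with log2 fold changes of -2.27 to -0.75, and the adjusted p was under 0.05 in 1 of them. The call therefore depended on the test, and in the same mice the marker sums of neutrophils, chondrocytes, hypertrophic chondrocytes, and B lineage cells differed as given above, and their part in the *Nkd2* level was not tested. *Foxd1* (r = 0.97) and *Pura* (r = 0.96) had the pattern over the 8 mice most like that of *Nkd2*.

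**Figure D3:**
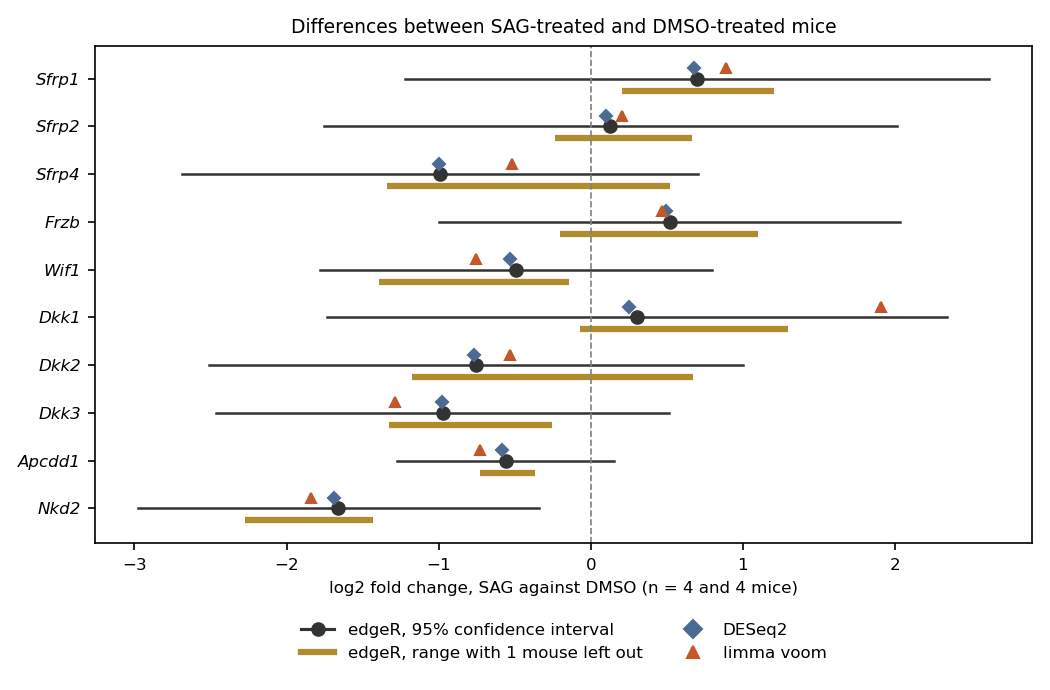
Log2 fold change of each antagonist, SAG against DMSO, with the edgeR estimate and 95% interval in black, the range of edgeR estimates with each mouse left out in turn as a bar, and the DESeq2 and limma voom estimates as a diamond and a triangle. All intervals hold 0 except that of *Nkd2* (-2.98 to -0.34), and the bars of *Sfrp2*, *Sfrp4*, *Frzb*, *Dkk1*, and *Dkk2* cross 0.

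The highest level of the 10 genes fell to DMSO replicate 1 in 3, to DMSO replicate 4 and SAG replicate 4 in 2 each, and to DMSO replicate 2, DMSO replicate 3, and SAG replicate 3 in 1 each. DMSO replicate 4 and SAG replicate 2 each held the lowest level of 4 of the 10 genes, and DMSO replicate 2 and SAG replicate 3 of 1 each. SAG replicate 2 was lowest in *Sfrp1*, *Sfrp2*, *Wif1*, and *Apcdd1*, and its summed level of the 10 genes, 156 CPM, was the lowest of the 8 mice. It also held the lowest summed chondrocyte markers and the highest summed neutrophil markers, 20735 and 40753 CPM. DMSO replicate 4 was lowest in *Sfrp4*, *Frzb*, *Dkk2*, and *Dkk3* and highest in *Sfrp2* and *Dkk1*. With that mouse left out, 0 of the 10 genes were called in either direction, although the calls among all tested genes changed to 1017 higher and 343 lower from 404 and 41.

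The other genes of the pathway, taken from fixed lists, likewise gave no call with edgeR. Of 16 other Wnt antagonists tested, 0 were called and 11 had a log2 fold change below 0, with a median of -0.50. *Igfbp4*, an insulin-like growth factor binding protein that also restrains Wnt signaling, was the most abundant of them at 103 ± 50.4 CPM and 149 ± 50.1 CPM (SD, n = 4 each), with overlapping groups. *Trabd2b*, a protease that inactivates Wnt ligands, was at 103 ± 44.1 CPM and 72.5 ± 33.1 CPM, and *Shisa2*, which retains Frizzled receptors inside the cell, at 59.2 ± 15.9 CPM and 40.0 ± 21.1 CPM. Neither passed the test (adjusted p = 0.626 and 0.563 from edgeR). The unadjusted p was under 0.05 for 3 of the 16, each with a negative log2 fold change, against 6.5% of all tested genes in that direction. DESeq2 called *Sfrp5* lower (log2 fold change -1.15, adjusted p = 0.0284), and limma voom called *Sfrp5* and *Notum* lower, where it called 2.58% of all tested genes lower.

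Ligands, receptors, R-spondin axis genes, and targets had medians below that of all tested genes, without a call from edgeR over the 8 mice. Of the 43 genes tested, 6 had an unadjusted p under 0.05 from edgeR in the lower direction and 0 in the higher, against 6.5% and 9.58% of all tested genes. The 8 Wnt ligands tested had a median of -0.89, and *Wnt5b*, the most abundant, was at 20.2 ± 10.3 CPM in DMSO-treated and 12.8 ± 5.72 CPM in SAG-treated mice. *Wnt11* was at 13.5 ± 5.21 CPM and 4.93 ± 2.21 CPM and *Wnt4* at 9.43 ± 5.52 CPM and 3.91 ± 2.84 CPM, with overlapping groups in both. The 15 receptors and coreceptors had a median of -0.26. *Lrp6*, the coreceptor that Dkk1 binds, was at 166 ± 57.7 CPM and 128 ± 45.9 CPM, *Lrp5* at 47.8 ± 8.58 CPM and 57.6 ± 17.2 CPM, and *Fzd7* at 48.0 ± 21.5 CPM and 32.8 ± 15.0 CPM. The groups overlapped in each of these receptors. The 9 genes of the R-spondin axis, which controls the level of Frizzled receptors and holds genes of opposite effect, had a median of -0.72. *Lgr4*, *Lgr6*, and *Znrf3* were the most abundant, with adjusted p values of 0.458, 0.544, and 0.949 from edgeR.

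The 14 Wnt target genes tested had a median of -0.52, with 10 of the 14 below 0. *Lef1*, a TCF/LEF factor that is also a target, was measured at 175, 193, 147, and 52.9 CPM in DMSO replicates 1 to 4 and at 76.2, 28.1, 48.4, and 65.0 CPM in SAG replicates 1 to 4. The lowest DMSO-treated mouse, DMSO replicate 4, lay among the SAG-treated mice and the other 3 lay above all of them. Its log2 fold change by edgeR was -1.39, with an adjusted p of 0.0899. *Ccnd1* was at 56.4 ± 25.3 CPM and 29.6 ± 14.3 CPM and *Myc* at 48.1 ± 14.1 CPM and 37.8 ± 15.8 CPM (SD, n = 4 each). Of the genes in the ligand, receptor, R-spondin, and target lists, 43 in the edgeR test, DESeq2 called 4 lower and limma voom 5, where they called 3.35% and 2.58% of all their genes lower. *Lef1*, *Wnt11*, and *Fzd1* were called by both, and *Notum*, called by limma voom, is also among the other antagonists above.

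**Figure D4:**
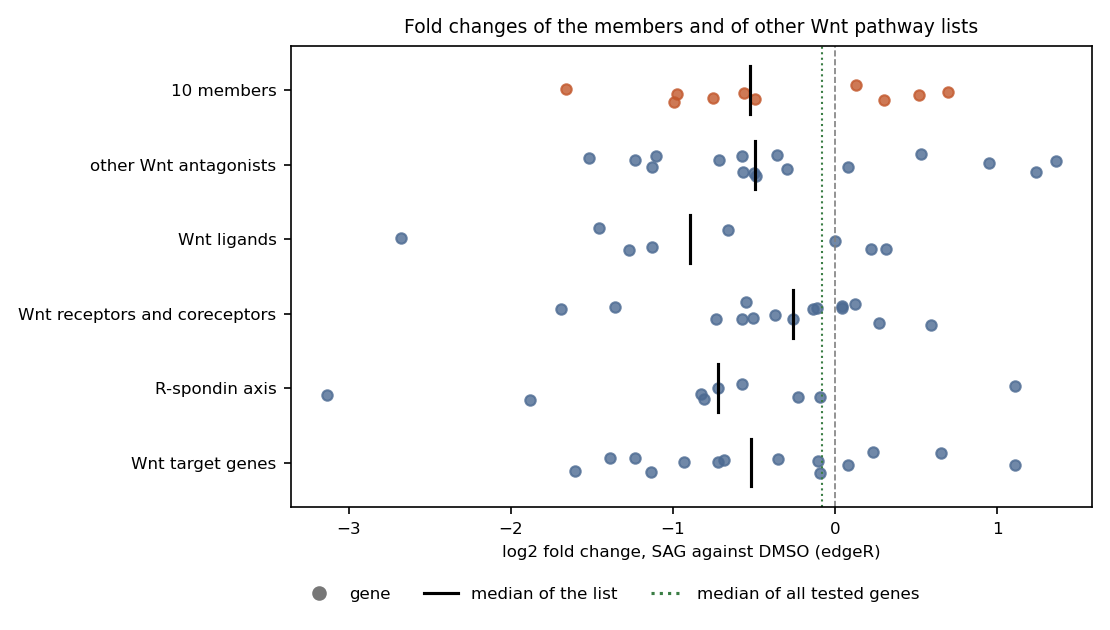
Log2 fold changes, SAG against DMSO, of the tested genes in the 10 antagonists and 5 other Wnt lists, with a black line at each list's median and a dotted line at the median of all tested genes (-0.08). Medians lie between -0.89 for the ligands and -0.26 for the receptors, and each list holds genes on both sides of 0.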

How the data were processed

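The authors deposited raw counts per gene and library from total RNA of mCherry+CD73+ cells, whole numbers without normalization. The submitters' processing notes name kallisto, DESeq2, and GRCm38, with no roles given, and the steps from reads to counts were not repeated. All 8 libraries were matched to group and replicate by their labels. Coordinates and exon lengths came from GENCODE M21 (GRCm38) and promoter windows from RefSeq (GRCm38.p6). The library kit was stranded, and the strand setting of the counting is not given in the sources used here.

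In R 4.3.3, counts were tested with edgeR 4.0.16 (filterByExpr, TMM, robust quasi-likelihood test, Benjamini-Hochberg adjustment over 15421 genes, threshold 0.05), with a prior count of 2 for log2 CPM. The study states no test for the sequencing. In simulated counts, a known change was given to 200 of 15421 genes, picked at random. The counts were drawn with the spread per gene that edgeR estimated from these data, and no library was made to stand apart. The recovery and false calls below hold for that setting only and do not rank the tools on the real counts. At 2-fold, edgeR recovered 0 of the 200, limma voom 1, and DESeq2 38. At 4-fold they recovered 97, 91, and 130, and at 8-fold 124, 106, and 153. DESeq2 made more false calls at each fold change tried, 54 to 65 against 0 to 4 for edgeR and limma voom. p-values measure the spread between mice, 4 per group. DESeq2 1.42.0 and limma 3.58.1 were alternatives, beside other scalings, filters, covariates, and each mouse left out. The 10 genes and the lists were chosen with earlier results of these data known. Named were all 10 genes, genes of the Wnt lists called by edgeR or, with fewer than 3 in a list, its 3 with the highest mean CPM, the 2 genes most like each antagonist, and *Pthlh*, *Nt5e*, *Col2a1*, *Acan*, and *Sox9*. Genes named after their values were seen were *Prg4*, *Postn*, *Aspn*, *Fmod*, *Col1a1*, *Pi16*, *Ihh*, *Col10a1*, *Vpreb1*, and genes called only by other tools or with a mouse left out. The most alike genes not given in the report are in the closing section.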

Additional observations from a re-analysis of the deposited data

Results flagged for a closer look

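*Dkk2* in DMSO replicate 1 lay apart from the other 3 DMSO-treated mice: it was measured at 25.6 CPM against 4.26, 3.68, and 2.01 CPM, and the gap to the next mouse divided by the range of the group was 0.905, above Dixon's 95% critical value for 4 samples. The levels of each of the 10 antagonists and of their sum were examined in both groups, 22 groups in all. Chance would give 1.1 such groups if the values were independent and normally distributed. CPM values were used without a check of this, and the sums hold the same genes, so the true rate is not known. *Sfrp4* in the same mouse had a ratio of 0.784, below the critical value. No other group exceeded it.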

How the results depend on the processing

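With 4 mice per group and the spread given above, only large differences could be called. Across 17 alternatives, 153 of 170 fold changes of single antagonists kept their direction and stayed without a call. *Sfrp1* and *Nkd2* had no reversal. DESeq2 called 1 of the 10 lower (*Nkd2*, -1.69), 1 other antagonist lower, and 4 genes of the ligand, receptor, R-spondin, and target lists lower. limma voom with quality weights gave 0, 2, and 5. With each mouse left out in turn, 0 of the 10 were called, and the counts of lower calls in the other 2 sets were 0 to 2 and 0 to 5, the highest without DMSO replicate 4, with 1 other antagonist without SAG replicate 1. Left-out mice gave log2 fold changes of -0.24 to 0.67 for *Sfrp2*, -1.34 to 0.52 for *Sfrp4*, -0.21 to 1.10 for *Frzb*, -0.070 to 1.30 for *Dkk1*, and -1.18 to 0.67 for *Dkk2*. Scaling to chondrocyte markers moved the median of all genes to 1.03, left 1 higher and 0 lower calls among all genes, and gave 0.52 for *Sfrp4*, 0.20 for *Wif1*, 0.54 for *Dkk2*, 0.44 for *Dkk3*, and 0.57 for *Apcdd1*, all below that median. With *Ddx3y* as a covariate, *Sfrp2* was at -0.49. Causes were not tested. Among all genes, higher and lower calls were 812 and 413 with DESeq2, 995 and 398 with limma voom, and 80 to 1017 and 4 to 343 with a mouse left out.

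Same-numbered mice of the 2 groups correlated at r = 0.12, 0.022, 0.019, and 0.010 in their deviations from the group means. The highest r of each DMSO-treated mouse with a SAG-treated mouse of another number was -0.0067, 0.054, 0.0093, and 0.084. These values cannot decide whether the numbers pair the mice, and the labels do not say. The replicate block left 0 of the 10 called and gave -0.050 for *Sfrp2* and 0.045 for *Sfrp4*, with 334 higher and 18 lower calls among all genes.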

Other observations

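The genes with the pattern over the 8 mice most like that of each remaining antagonist were *Itm2a* (Pearson's r 0.99) and *D630045J12Rik* (0.98) for *Wif1*, *Rgmb* (0.96) and *Cd200* (0.93) for *Frzb*, *Gtf2i* (0.99) and *Zfp260* (0.98) for *Apcdd1*, *Fasn* (0.98) and *Ipo4* (0.96) for *Dkk3*, *Recql5* (0.95) and *Ube2a* (0.94) for *Dkk1*, *Yars* (0.92) and *Gpsm2* (0.90) for *Sfrp1*, and *Mfhas1* (0.93) and *Aig1* (0.91) for *Sfrp2*. Each is the highest or second of 9307 genes, so high values were found for every antagonist by the search itself.

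*Ddx3y*, a gene of the Y chromosome, lay at 64.0 CPM or more in DMSO replicates 1, 3, and 4 and SAG replicates 2 and 4, and at 2.44 CPM or less in the other 3 mice. With its level as a covariate, the log2 fold change of *Nkd2* stayed negative and 0 of the 10 antagonists were called.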
